A study of Homo sapiens and Homo sapiens
Mus musculus and Mus musculus with 9 samples.

Results

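The collagen genes are the 44 protein-coding genes of the deposited table whose symbol is COL, a number, A and a number, among 19939 protein-coding genes and 41713 genes in all. RNA-Seq was run on 3 libraries of C4-2B cultured alone and 3 libraries of the mixed co-culture, in which C4-2B, a bone-homing human prostate cancer (PCa) cell line, shared the dish with MC3T3-E1, a mouse pre-osteoblast line, at a ratio of 1 to 30. A further 3 libraries of MC3T3-E1 alone were sequenced and are not analysed here. All cells were labelled wild type and grown in alpha-MEM with fetal bovine serum, and each culture rests on 1 human and, where mixed, 1 mouse cell line. The study compared the co-culture with C4-2B alone to find how human PCa cells change beside osteoblasts, and used 3 pipelines, Xenome, XenofilteR and Kallisto, to keep human reads apart from mouse reads.

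The value used here for each pipeline is a mean normalized count over these 6 libraries, and the deposited comparison of the cultures was left aside, so each level below is a level over both cultures together, with no error of its own and no test between cultures. In such bulk libraries, fewer cells of a type and less RNA per cell cannot be told apart. The 44 genes comprised 11 fibrillar collagens, 10 basement membrane and epithelial collagens, 10 FACIT collagens (which coat fibrils), 5 beaded filament collagens, 3 short-chain network collagens, 3 transmembrane collagens and 2 others. COL17A1, which is also a transmembrane collagen, was counted with the basement membrane and epithelial collagens.

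Collagens are secreted or transmembrane proteins in which 3 chains wind into a helix that needs a glycine at regular steps. Fibrillar collagens, above all type I, form the tensile fibres of bone, skin and tendon and are the main product of osteoblasts and fibroblasts. Type IV collagen forms the sheet of the basement membrane on which epithelia rest, type VII anchors that sheet, and type VI forms beaded microfibrils around many cells. Several collagen types, among them I, IV, V and VI, are built from chains of different genes. For these the level of one chain gene says little without its partners.

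Human marker genes of the labelled cell types were looked at first. The osteoblasts were mouse cells, whose reads the pipelines were meant to keep apart. The osteoblast and mesenchymal markers below are thus not a measure of the MC3T3-E1 cells. Of 11 prostate epithelial markers listed beforehand, 10 were present among the protein-coding genes and KLK2 was not. All 10 had a mean of at least 10 in each pipeline (against 66.9% of all protein-coding genes with Xenome). With Xenome they ran from 4603 for TMPRSS2 to 51038 for KLK3 (prostate-specific antigen). All 10 lay within 1.5 times between Kallisto and Xenome, as did 77.1% of all protein-coding genes. Of 15 osteoblast and mesenchymal markers, 4 had a Xenome mean of at least 10, against 66.9% of all protein-coding genes, namely RUNX2 at 411, PRRX1 at 78.5, SPARC at 72.0 and PDGFRB at 62.8. A Xenome mean below 1 was found for 5 of the 15, which were ALPL (0.103), SP7 (0.984), LUM (0.0970), DCN (0.966) and SPP1 (0.653). The other 6, among them the osteoblast genes BGLAP (3.78) and IBSP (2.75), lay between 1 and 10.

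With Xenome, 24 of the 44 collagen genes had a mean of at least 10, or 54.5%, against 66.9% of all protein-coding genes. The number was 25 with XenofilteR (56.8%, against 66.9%) and 28 with Kallisto (63.6%, against 75.4%). The member nearest below this minimum with Xenome was COL8A2 at 8.32, and the nearest above it was COL4A3 at 12.999. COL5A3, COL22A1 and COL25A1 were listed at 0 by Kallisto and were not listed by the other pipelines. COL21A1 (0.0343) and COL6A5 (0.0317) were likewise listed by Kallisto alone, which left 39 members with a value in all 3 pipelines.

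Per kilobase of exon, most of the collagen transcripts came from 5 genes. COL6A1, a chain of the type VI microfibril, had a Xenome mean of 1908 per kb, or 54.2% of the sum over the members. COL4A5, a basement membrane chain, made up 10.97% (386 per kb), COL1A1 10.7% (376 per kb), COL6A2 9.18% (323 per kb) and COL26A1 5.56% (196 per kb). The share of COL1A1 was 13.4% with XenofilteR and 7.90% with Kallisto, while that of COL6A1 lay between 51.0% and 55.8% over the pipelines.

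**Figure D1:**
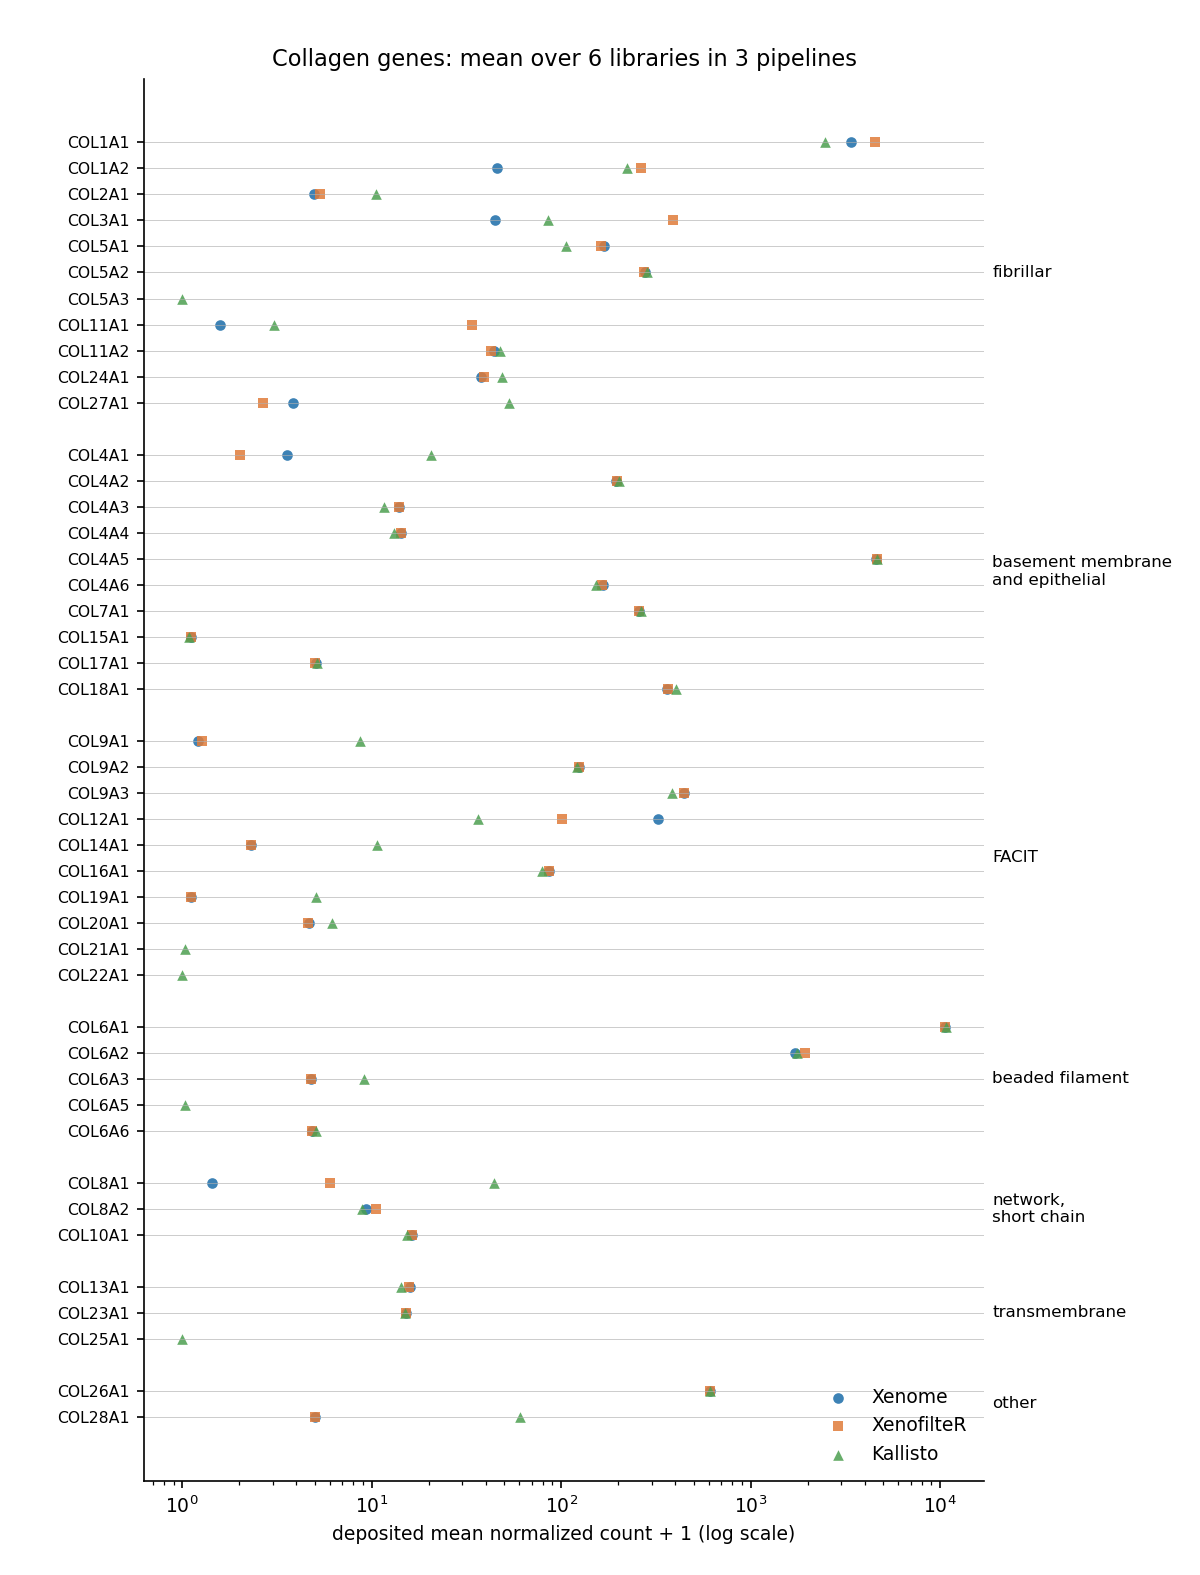
Deposited mean normalized count plus 1 (log axis) of each of the 44 collagen genes over 6 libraries, grouped by class, with circles for Xenome, squares for XenofilteR and triangles for Kallisto. The 3 symbols lie on each other for COL6A1, COL4A5, COL7A1 and COL26A1 and lie apart for COL1A2, COL3A1, COL11A1, COL12A1, COL8A1 and COL27A1.

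COL4A5, of the basement membrane and epithelial collagens, had means of 4580, 4626 and 4627 in the order Xenome, XenofilteR and Kallisto, which is kept below wherever 3 values are given. COL4A2 was at 194, 197 and 202, and COL4A6 at 165, 164 and 152. COL7A1, the anchoring fibril chain of epithelial junctions, was at 255.5, 256.2 and 262.4, and COL18A1, the source of endostatin, at 363, 364 and 404. Of the 10 genes, 9 (90.0%) lay within 1.5 times between Kallisto and Xenome, against 77.1% of all protein-coding genes and 89.6% of those with a mean of at least 50 in both, and the median log2 ratio of Kallisto to Xenome, each mean plus 1, was 0.02, against 0.04 for all protein-coding genes. COL4A3 (12.999 with Xenome) and COL4A4 (13.2), the chains of kidney and lung basement membranes, lay just above the minimum of 10. Without library 6 of the libraries solved below, COL4A4 was at 6.72 with Xenome, below that minimum. COL17A1 (4.07), a transmembrane collagen of hemidesmosomes, and COL15A1 (0.119) lay below it with all libraries. COL4A1 was the exception at 2.58, 1.02 and 19.6.

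The levels of chains that are made to assemble together were compared per kb. With Xenome, COL5A2 was 2.54 times COL5A1 and COL9A3 was 3.12 times COL9A2. On the same scale, COL4A2 was 57.3 times COL4A1 with Xenome, 147 times with XenofilteR and 7.84 times with Kallisto, although these chains build the most common type IV molecule together. COL4A5 was 21.7 times COL4A6 with Xenome and 23.7 times with Kallisto. COL4A4 was 1.06 times COL4A3 with Xenome and 1.19 times with Kallisto, but the first ratio was 0.692 without library 6 of the libraries solved below, where COL4A4 had 5 counts, and 0.967 without library 5. In libraries 1 to 3 COL4A3 had 86, 74 and 50 counts and COL4A4 had 36, 36 and 33. Without library 6, which held 1 count of COL4A1, COL4A2 was 115 times COL4A1 with Xenome, and without library 4, which held 2, it was 542 times with XenofilteR. COL6A1 exceeded COL6A2 5.91 times, and COL6A3, the third chain of the usual type VI molecule, had 0.176 per kb against 1908 for COL6A1. COL6A3 was solved into 5, 2, 4, 1, 0 and 2 counts in the 6 libraries with Xenome. Its Xenome mean was 3.79 over all libraries and 0.877 without library 6. With Kallisto, COL6A3 had 0.379 per kb against 1938 for COL6A1.

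The genes of each type IV pair lie head to head and are transcribed away from each other. In the RefSeq promoter table (GRCh38.p14) the start sites of COL4A1 and COL4A2 on chromosome 13 are separated by 126 bases, those of COL4A6 and COL4A5 on chromosome X by 379 bases and those of COL4A4 and COL4A3 on chromosome 2 by 418 bases. The stretches between the first 2 pairs are shown since, of the 3 type IV pairs, these chains differ most in level. They are given on the plus strand, the first at chr13:110307158-110307283 and the second at chrX:108439588-108439837, the 250 bases before COL4A5. Capitals mark CCAAT and the GC box GGGCGG on either strand.
COL4A1 and COL4A2: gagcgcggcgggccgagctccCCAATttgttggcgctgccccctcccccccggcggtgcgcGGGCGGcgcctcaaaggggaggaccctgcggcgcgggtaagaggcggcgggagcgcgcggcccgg
COL4A6 and COL4A5: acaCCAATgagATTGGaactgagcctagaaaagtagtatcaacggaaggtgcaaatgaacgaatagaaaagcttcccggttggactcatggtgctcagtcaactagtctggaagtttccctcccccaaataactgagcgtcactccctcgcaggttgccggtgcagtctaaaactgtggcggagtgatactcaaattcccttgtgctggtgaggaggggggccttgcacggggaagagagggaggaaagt
The first stretch held 1 CCAAT and 1 GC box, motifs found in 21.1% and 34.6% of all promoter windows cut to the same length. The second held 2 CCAAT matches, a motif found in 32.0% of windows of its length, and 0 GC boxes. These are matches of letters, not sites.

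Of the fibrillar collagens, COL1A1, the main chain of type I collagen, had a mean of 3384 with Xenome, 4557 with XenofilteR and 2471 with Kallisto. COL1A2, its partner chain, was at 44.96, 264 and 222. The ratio of COL1A1 to COL1A2 per kb thus fell from 90.4 with Xenome to 20.8 with XenofilteR and 13.4 with Kallisto. Without library 5 of the libraries solved below, COL1A2 was at 27.7 with Xenome and 165 with XenofilteR. COL1A1 was not solved, so the ratio could not be taken without a library. COL3A1, which joins type I in soft tissue fibrils, was at 43.9, 389 and 84.1. COL11A1, a chain that sets fibril width in cartilage, was at 0.575, 32.9 and 2.05, and COL27A1, another cartilage collagen, at 2.83, 1.67 and 52.3.

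A few fibrillar chains lay within 1.5 times in all pipelines. COL5A2, which starts fibrils with COL5A1, was at 277, 274 and 284. COL11A2 was at 43.3, 41.4 and 46.9, and COL24A1 at 36.6, 38.0 and 47.5. COL5A1 was at 167 and 162 with the read-filtering pipelines and at 105 with Kallisto. Over the 10 fibrillar genes with values the median log2 ratio of Kallisto to Xenome was 0.64, with a range from -0.66 for COL5A1 to 3.80 for COL27A1, and 4 of the 10 (40.0%) lay within 1.5 times, against 77.1% of protein-coding genes. With XenofilteR in the denominator that median was -0.10, so the fibrillar class had no single direction. The same median over all protein-coding genes was 0.04 and 0.03.

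Kallisto gave over 4 times the Xenome mean for 8 of 39 collagen genes, or 20.5%, where 10.8% of all protein-coding genes listed by the pipelines did so. They were COL1A2, COL4A1, COL8A1, COL9A1, COL14A1, COL19A1, COL27A1 and COL28A1, and of these only COL1A2 had a Xenome mean over 10. The largest ratio was that of COL8A1, a short-chain collagen of vessel walls, at 30.9 times (0.434 with Xenome and 43.3 with Kallisto). COL28A1 was at 4.05 and 60.0, or 12.1 times, and COL27A1 at 13.9 times. COL9A1 (0.210 and 7.72) was at 7.21 times. COL14A1 (1.32 and 9.66) and COL19A1 (0.112 and 4.11) were both just inside the limit at 4.59 times, and COL2A1, the cartilage fibril chain, was the nearest outside it at 2.12 times (3.95 and 9.52). At a limit of 2 times the count was 9 (23.1%, against 16.6%), and at 8 times it was 3 (7.69%, against 7.05%). The opposite, a Xenome mean over 4 times that of Kallisto, was found for COL12A1 alone, or 2.56% of the members against 0.365% of protein-coding genes.

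XenofilteR and Xenome gave almost the same mean for most genes, and the collagens held several of the exceptions. XenofilteR exceeded Xenome over 4 times for 4 of 39 members, or 10.3%, against 0.073% of protein-coding genes (13 of 17808). These 4 were COL11A1 at 21.5 times, COL3A1 at 8.68 times, COL1A2 at 5.76 times and COL8A1 at 4.20 times, and 3 of them are fibrillar. The next member was COL1A1 at 1.35 times. Leaving out library 5, one of the libraries solved below, gave 13.3 times for COL11A1, 5.11 times for COL3A1, 5.80 times for COL1A2 and 0.975 times for COL8A1, and leaving out library 6 gave 14.1 times for COL11A1. MMP14, a membrane-bound collagenase, was also among the 13 genes at 15.5 with Xenome, 75.6 with XenofilteR and 2567 with Kallisto. A Xenome mean over 4 times that of XenofilteR was found for 0 members, and for 0.0562% of protein-coding genes. COL12A1, a FACIT collagen on the surface of type I fibrils, came closest at 323 with Xenome, 99.8 with XenofilteR and 35.6 with Kallisto.

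Against Kallisto, XenofilteR was over 4 times higher for COL3A1 and COL11A1, or 5.13% of the members against 0.354% of protein-coding genes. Kallisto was over 4 times higher than XenofilteR for 7 members, or 17.9%, against 10.8%, and these were the 8 named above without COL1A2. COL1A2, COL3A1, COL11A1 and COL12A1, named together here because they disagreed, were each over 4 times apart in at least 1 pair of pipelines. The shares of protein-coding genes for each pair are those given above. COL1A1 and COL11A2 are other chains of types I and XI. They were 1.35 and 0.958 times Xenome with XenofilteR and 0.730 and 1.08 times with Kallisto.

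**Figure D2:**
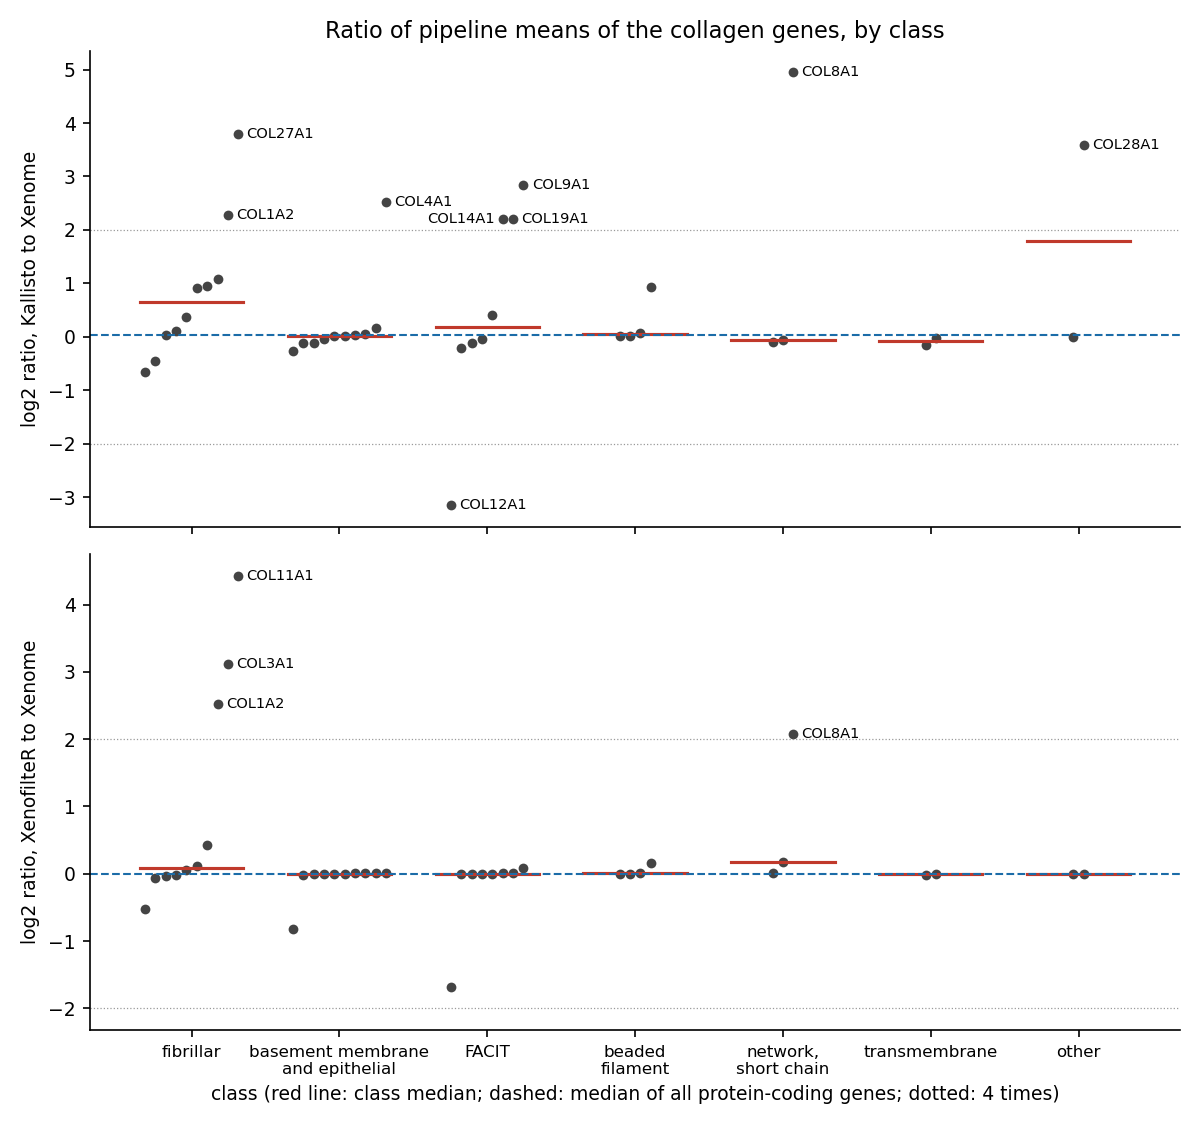
Log2 ratio of the Kallisto mean (upper panel) and the XenofilteR mean (lower panel) to the Xenome mean, each plus 1, for the 39 collagen genes with values, 1 point per gene, by class. Red lines are class medians, the dashed line is the median of all protein-coding genes and dotted lines mark 4 times. The basement membrane genes lie near 0 apart from COL4A1, while COL11A1, COL3A1 and COL1A2 rise to between 2.53 and 4.43 in the lower panel.

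Of 8 FACIT genes with values, 4 were over 4 times apart between Kallisto and Xenome (COL9A1, COL14A1, COL19A1 and COL12A1), COL12A1 being the one that was lower with Kallisto. Of all protein-coding genes, 10.8% were over 4 times higher and 0.365% over 4 times lower with Kallisto. COL8A1 is a network collagen and COL28A1 is 1 of the 2 others. Of the beaded filament genes, COL6A1 was at 10564, 10623 and 10728 and COL6A2 at 1723, 1928 and 1751. The FACIT genes COL9A2 (123, 124 and 121), COL9A3 (443, 444 and 382) and COL16A1 (85.3, 84.9 and 78.3) lay within 1.5 times in all pipelines, and COL9A3 shares exon bases with TCFL5 on the opposite strand, as COL18A1 does with SLC19A1 and COL19A1 with LMBRD1. Whether the counting used strand was not given in the sources used here. COL20A1 was at 3.64 with Xenome and 5.18 with Kallisto, and COL6A6 of the beaded filaments at 3.82 and 4.07. COL10A1, the collagen of growing cartilage, was at 15.4, 15.4 and 14.4. The transmembrane COL13A1 (14.9, 14.7 and 13.2) and COL23A1 (14.1, 14.1 and 14.0) lay within 1.5 times in all pipelines. COL26A1, a small secreted collagen, had 607, 607 and 606, the closest agreement of any member above 50 in Kallisto against Xenome.

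Since a mean over 6 libraries is a sum of whole counts divided by 6 size factors, the counts of each library were solved from the Xenome and XenofilteR means. The size factors for Xenome were 5.93, 5.31, 4.86, 0.427, 0.145 and 0.109, here called libraries 1 to 6, so the size factor of the deepest was 54.4 times that of the shallowest. No label ties a solved library to a culture, so none was assigned to a group and no test was made. Means of solved libraries were taken only over all 6 or with 1 library left out. A count of 0 allows up to 3 counts, which is a normalized count of 0.506 in library 1 and of 27.6 in library 6, and covers counting error only. Exactly 30 members were solved in each pipeline, and the highest means, among them COL1A1, COL6A1 and COL4A5, were not.

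COL1A2 had 1, 0, 0, 12, 19 and 12 counts in libraries 1 to 6 with Xenome, and 1, 0, 0, 78, 109 and 70 with XenofilteR. Libraries 1 to 3 were at or near 0 in both, and libraries 4 to 6 held all but 1 of the counts. The XenofilteR counts were sought near those of Xenome in libraries 1 to 3, so this likeness is partly built in. Divided by size factor, libraries 4 to 6 were at 28.1, 131 and 110 with Xenome and at 183, 755 and 644 with XenofilteR.

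COL3A1 had 394, 321, 270, 12, 5 and 2 counts with Xenome and 390, 321, 268, 89, 165 and 87 with XenofilteR. The normalized counts of libraries 1 to 3 lay between 55.5 and 66.5 with Xenome, above the 18.4 to 34.5 of libraries 4 to 6. With XenofilteR the order turned, since libraries 4 to 6 rose to 209, 1142 and 800. The XenofilteR counts were sought near those of Xenome in libraries 1 to 3, which left the rise of the mean to libraries 4 to 6.

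COL11A1 had 4, 6, 8, 0, 0 and 0 counts with Xenome and 4, 6, 8, 9, 13 and 9 with XenofilteR. Libraries 1 to 3 were equal in both searches, which were made separately. All 31 counts by which the pipelines differ lay in libraries 4 to 6.

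COL12A1 was lower with XenofilteR, with 128, 72, 61, 79, 142 and 79 counts with Xenome and 126, 72, 61, 30, 31 and 29 with XenofilteR. Both rest on the XenofilteR solution, which was single at the tolerance used. At a tolerance 10 times as wide it was 1 of at least 8, the number at which the search stopped. Its normalized counts in libraries 1 to 3 lay between 12.5 and 21.6 in both pipelines. Libraries 4 to 6 stood higher with either, at 185, 981 and 726 with Xenome and at 70.4, 215 and 267 with XenofilteR.

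COL8A1 had 6, 3, 5, 0, 0 and 0 counts with Xenome and 6, 2, 5, 0, 4 and 0 with XenofilteR, so its 4.20 times rested on 4 counts in library 5. COL4A1 had 5, 3, 1, 2, 0 and 1 counts and 5, 2, 1, 2, 0 and 0, and a single count in library 6 moves the mean by 1.53. COL27A1 had 20, 18, 16, 0, 1 and 0 counts with Xenome, and COL28A1 had 31, 44, 41, 1, 0 and 0. The Kallisto means of 52.3 and 60.0 for these genes thus had no match in either filtered count.

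Counts of members with like means in both pipelines are given next. COL4A2, COL4A6, COL9A2 and COL5A1 were solved in both pipelines together, and only solutions that lay close in all 6 libraries were kept, so for them likeness of the pipelines library by library is built in. COL4A2 had 919, 894, 799, 70, 44 and 23 counts with Xenome, which is 155, 168, 164, 164, 304 and 211 after division by size factor. COL4A6 had 1251, 803, 645, 48, 18 and 28, or 211, 151, 133, 113, 124 and 257, and COL9A2 had 707, 738, 643, 62, 23 and 5, or 119, 139, 132, 145, 159 and 45.9. In these genes libraries 1 to 3 and libraries 4 to 6 overlapped. COL5A1 had 1070, 1250, 1016, 50, 16 and 16 counts, or 181, 235, 209, 117, 111 and 147, so libraries 4 to 6 were below libraries 1 to 3. COL11A2 was placed the same way, at 59.6, 51.6, 51.6, 18.8, 41.4 and 36.7, but with only 8, 6 and 4 counts in libraries 4 to 6. COL16A1 (7 solutions at the wide tolerance) was higher in libraries 4 to 6, at 53.0, 71.5, 66.0, 98.5, 76.0 and 147, with 42, 11 and 16 counts there. With so few counts, whether near values differ beyond counting error was not tested.

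Of the 30 members solved in both pipelines, those solved together included, 9 had equal counts in all 6 libraries and 23 differed by at most 1 count in each of libraries 4 to 6. A difference over 10 counts was found in libraries 4 to 6 for 4 members (COL1A2, COL3A1, COL11A1 and COL12A1) and in libraries 1 to 3 for 1 member (COL4A2, by up to 23 of 919). For COL1A2, COL3A1 and COL12A1 the solution of one pipeline was sought near that of the other in libraries 1 to 3. Their agreement there is partly built in, and the gap between their means could then lie only in libraries 4 to 6. Of the 4 members, COL11A1 alone was searched separately in both pipelines. For COL16A1 the agreement in libraries 1 to 3 is partly built in as well. Of the 22 members searched separately in both, 19 differed by at most 2 counts in each of libraries 1 to 3 and 19 by at most 1 count in each of libraries 4 to 6.

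**Figure D3:**
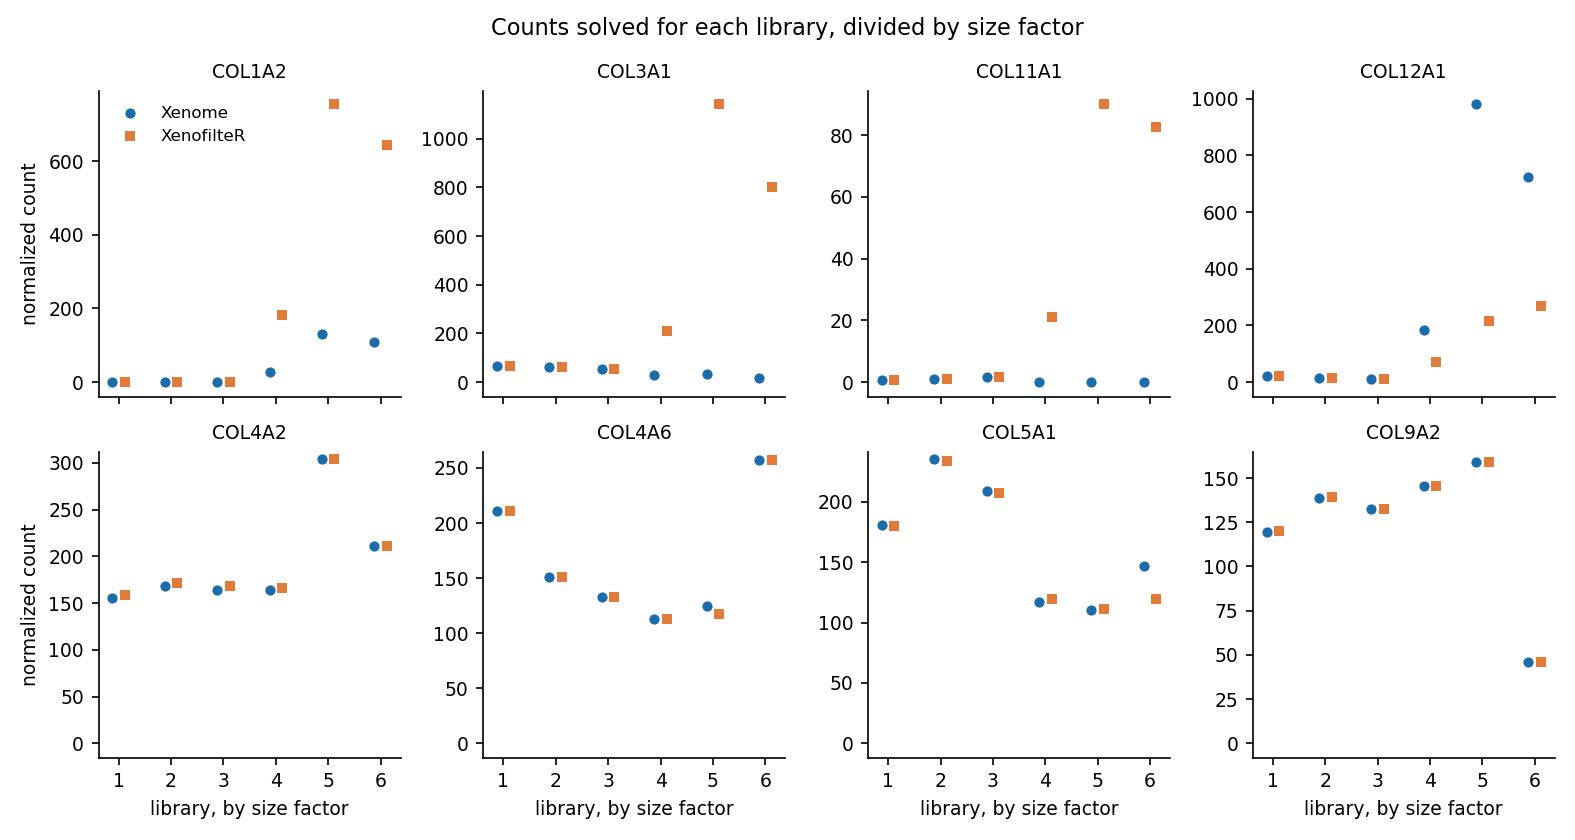
Normalized count (solved count divided by size factor, linear axes from 0) of 8 collagen genes in 6 libraries in order of size factor, the deepest first, with circles for Xenome and squares for XenofilteR. The pipelines lie far apart in libraries 4 to 6 for COL1A2, COL3A1, COL11A1 and COL12A1. COL11A1 alone was solved separately in both, so that likeness in the other panels is partly or, for COL4A2, COL4A6, COL5A1 and COL9A2, wholly built in by the search. For COL1A2, COL3A1 and COL12A1 the search left the difference between pipelines only to libraries 4 to 6.

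Human and mouse collagens are similar, so the sequence that each human gene shares with mouse was counted as a property of the pipelines' input. Of the distinct 31-base sequences in GENCODE 44 transcripts of the median protein-coding gene, 0.477% also occur in mouse GENCODE transcripts, on the sense strand. COL1A1 shared 4.24%, COL5A2 2.23%, COL12A1 2.11%, COL4A5 2.04%, COL11A1 1.59%, COL3A1 1.37% and COL1A2 1.02%. Of sequences as long as the 50-base reads, COL1A1 shared 1.25%, COL12A1 0.583%, COL4A5 0.488% and COL1A2 0, against 0 for the median gene.

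The longest coding stretch shared exactly with the mouse orthologue is shown for the 5 collagens named first for disagreement or level and for COL4A5, which agreed. Shared bases are in capitals and the 6 bases on each side in lower case, in the direction of the transcript, GRCh38. Where a stretch crosses an exon border its coordinates include the intron.
COL1A1: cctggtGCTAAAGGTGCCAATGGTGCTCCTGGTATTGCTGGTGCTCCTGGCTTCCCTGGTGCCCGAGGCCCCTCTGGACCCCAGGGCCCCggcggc
COL1A2: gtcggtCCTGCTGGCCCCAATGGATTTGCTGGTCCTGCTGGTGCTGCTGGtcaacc
COL3A1: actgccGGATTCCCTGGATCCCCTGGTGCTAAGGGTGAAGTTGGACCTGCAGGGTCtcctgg
COL11A1: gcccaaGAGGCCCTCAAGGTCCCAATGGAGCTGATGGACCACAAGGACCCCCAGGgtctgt
COL12A1: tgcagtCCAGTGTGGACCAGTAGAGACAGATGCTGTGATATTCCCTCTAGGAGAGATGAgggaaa
COL4A5: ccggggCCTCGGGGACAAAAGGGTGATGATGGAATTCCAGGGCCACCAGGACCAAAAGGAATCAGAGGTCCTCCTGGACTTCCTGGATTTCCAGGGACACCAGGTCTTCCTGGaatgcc
The COL1A1 stretch of 84 bases lies in exons 18 to 19 on the minus strand (chr17:50195262-50195448) and that of COL1A2, 44 bases, in exons 36 to 37 on the plus strand (chr7:94420412-94420551). That of COL3A1 has 50 bases in exons 15 to 16 (chr2:188992914-188993383, plus strand), that of COL11A1 49 bases in exons 48 to 49 (chr1:102920345-102921546, minus strand) and that of COL12A1 53 bases in exons 53 to 54 (chr6:75105285-75106463, minus strand). The longest of the 6, 107 bases of COL4A5 in exons 3 to 6 (chrX:108559139-108568760, plus strand), belongs to a gene whose 3 means differ by about 1%. Each stretch was found in 1 mouse gene, its own orthologue.

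Over the 39 members the Spearman rho between the shared 31-base percent and the size of the log2 ratio of XenofilteR to Xenome, whatever its sign, was 0.612, and with the size of the ratio of Kallisto to Xenome it was 0.0570. With the sign kept these were 0.0134 and -0.105. These are descriptions across genes that share libraries and differ in level. The 5 members over 2 times apart in Xenome and XenofilteR had a median of 1.37%, and the other 34 had a median of 0.610% with a maximum of 4.24% for COL1A1. The 8 members with the high Kallisto ratio had a median of 0.515% and at most 1.29%. Whether mouse reads are part of any of these values was not tested.

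**Figure D4:**
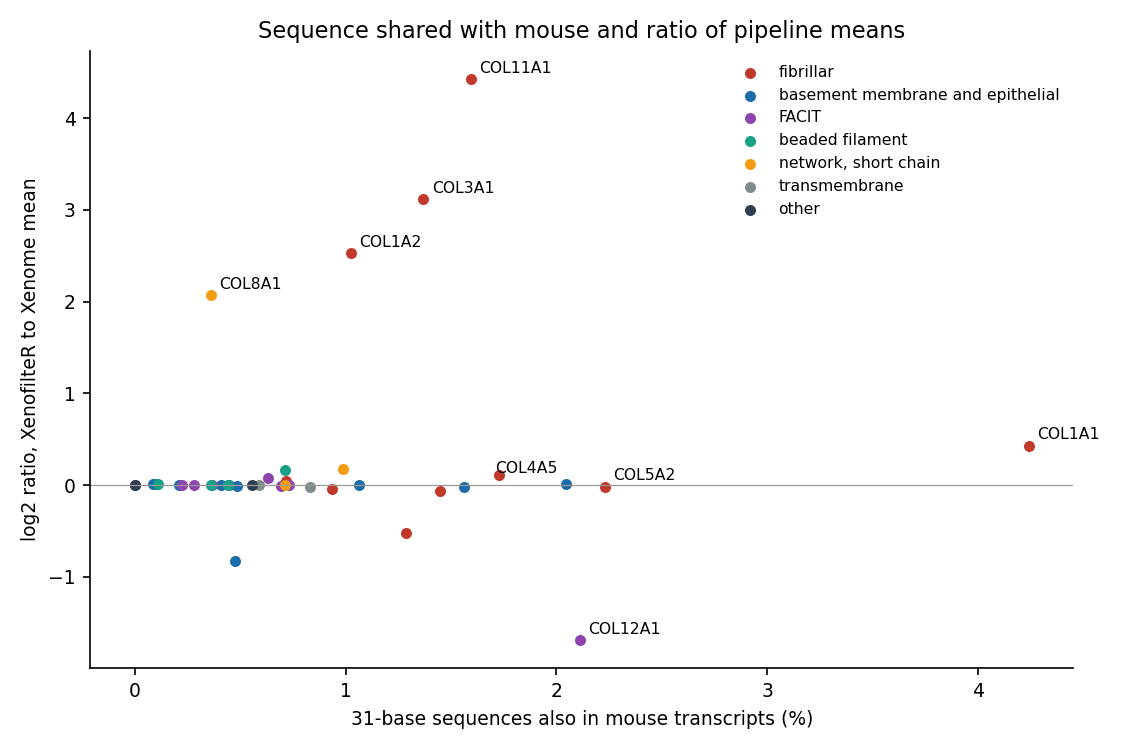
Percent of 31-base sequences of each collagen gene that also occur in mouse transcripts (horizontal) against the log2 ratio of the XenofilteR mean to the Xenome mean (vertical), 39 genes, coloured by class. COL1A1 shares most, 4.24%, and has a ratio of 0.43, COL4A5 shares 2.04% and has a ratio of 0.01, and COL11A1 and COL3A1 share less and have ratios of 4.43 and 3.12.

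The genes that make and modify collagen were compared in the same way. All 18 genes of collagen synthesis in the endoplasmic reticulum were listed by all pipelines, 17 had a Xenome mean of at least 10 (against 66.9% of all protein-coding genes), and 0 were over 4 times apart in any pair of pipelines, where the share of all protein-coding genes was between 0.0562% and 10.8%, depending on the pair and direction. P4HB, a subunit of prolyl hydroxylase, was at 33085 with Xenome and 37204 with Kallisto, PLOD1, a lysyl hydroxylase, at 6164 and 6156, and SERPINH1, the collagen chaperone HSP47, at 324 and 438. PPIB, a prolyl isomerase, and P3H2, a prolyl hydroxylase of type IV collagen, were 1.96 and 1.76 times higher with Kallisto, and the other 16 lay within 1.5 times (88.9%, against 77.1%).

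Of 13 genes that process and cross-link collagen outside the cell, 8 had a Xenome mean of at least 10, against 66.9% of all protein-coding genes. ADAMTS3, a procollagen protease, was at 604, BMP1, which trims the other end of procollagen, at 476, and the cross-linking enzymes LOXL1 and LOX at 155 and 151. The 1 gene of 13 over 4 times apart was ADAMTS2, at 0.677 with Xenome and 21.1 with Kallisto, a limit that 10.8% of protein-coding genes passed in this direction. The other 12 lay within 1.5 times (92.3%, against 77.1%). Of 5 collagenases, MMP13 was at 76.2, 76.1 and 79.1, whereas MMP14 was over 4 times apart in every pair, and 3 of the 5 lay within 1.5 times between Kallisto and Xenome (60.0%, against 77.1%). MMP2 was at 6.36, 19.1 and 12.8, and its counts rose from 5, 1 and 2 with Xenome to 9, 8 and 4 with XenofilteR in libraries 4 to 6, with 1, 1 and 4 in libraries 1 to 3 of both.

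Of 9 collagen receptors, DDR1, the epithelial receptor tyrosine kinase, was at 6701, 6720 and 6707 and ITGA2, the collagen-binding integrin chain of epithelia, at 1783, 1783 and 1825. DDR2, which binds fibrillar collagen on mesenchymal cells, was at 228, 245 and 273. LAIR1, an inhibitory receptor of immune cells, was over 4 times higher with Kallisto (54.3) than with Xenome (0.0938), the 1 receptor of 9 to pass this limit, as 10.8% of protein-coding genes did. ITGA11, a mesenchymal integrin chain, was at 37.2 and 136. Of the 9 receptors, 5 lay within 1.5 times between Kallisto and Xenome, or 55.6%, against 77.1%.

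The human osteoblast and mesenchymal marker genes were set beside the fibrillar collagens. Between Kallisto and Xenome, 1 of 15 was over 4 times apart, namely DCN, at 0.966 and 64.6 (6.67%, against 10.8% of protein-coding genes), and 11 of 15 lay within 1.5 times (73.3%, against 77.1%). Between XenofilteR and Xenome, 0 of 15 were over 4 times apart, a limit that 0.073% of protein-coding genes passed with XenofilteR higher and 0.0562% with Xenome higher. Of the 15, 13 lay within 1.5 times between XenofilteR and Xenome, or 86.7%, against 99.3% of protein-coding genes, and the other 2 were SPARC at 1.96 times and POSTN at 1.81 times. SPARC, which binds collagen in bone, was at 72.0, 142 and 142, and POSTN, a matrix protein of periosteum, at 4.22, 8.47 and 3.92. POSTN had 0 counts in libraries 1 to 3 in both pipelines and 1, 2 and 1 in libraries 4 to 6 with Xenome and 1, 7 and 0 with XenofilteR. ALPL had 3 counts in all, each in library 3, and SP7 had 15, 7, 10, 0, 0 and 0 with Xenome. Summed over the 15 markers the means came to 650, 735 and 801 in the 3 pipelines.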

How the data were processed

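The members and gene lists were chosen with earlier results of these data known. Per the labels and the study's methods, 50-base paired reads of stranded libraries were processed by the authors in 3 pipelines. Reads classed as human by Xenome were aligned with HISAT2 to GRCh38, XenofilteR removed mouse reads after alignment to GRCh38 and GRCm38, and Kallisto used a joined human and mouse GENCODE transcriptome. FeatureCounts made the counts of the first 2 pipelines, and the authors normalized all of them with DESeq2. Versions were not given in the sources used here. The deposited values used are each pipeline's mean count after division by size factor, over 6 libraries. The table also holds the authors' fold changes, errors, test statistics and p-values for the co-culture against C4-2B alone, which were not used. Of 41734 rows, 21 that repeat a gene were dropped, and 0 further columns of single samples were present.

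Ratios were log2 of means plus a pseudocount of 1. A mean of at least 10 counted as measured, and named genes were members with a mean of at least 10 in any pipeline, members solved with at least 3 counts in a library, and those nearest to a limit; list genes were named with a mean of at least 50 in any pipeline or at the ends of a range. COL15A1, MMP2, POSTN, ALPL, SP7, SPP1, BGLAP and IBSP fall outside this rule and were named after their values were seen. So do COL5A3, COL22A1, COL25A1, COL21A1 and COL6A5, which were named because Kallisto alone listed them. Ratios of one gene to another, and shares of the collagen sum, were taken per kb of exon (GENCODE 44, GRCh38), while other levels are means that also depend on gene length.

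Size factors were fitted to low means, and whole counts of 6 libraries were found by exhaustive search (numpy 2.4.6, numba 0.67.0) and kept where exactly 1 solution fitted. All 20014 Xenome means below 10 had 1 solution. On simulated data the search of a pipeline alone recovered 400 of 400 genes in each pipeline. Means above 100, and COL16A1 with XenofilteR, were searched with the other pipeline's solution as a guide, a step added after seeing the data. Recovery by this guided step, or by solving both pipelines together, was not tested. Estimated human counts per library ranged from 4.61 to 251, in units of 1e6 (size factor times the summed mean). The mean carries no replicate error, so no test was made. Sequences came from GENCODE transcripts and the RefSeq promoter table, which holds 35097 windows.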

Additional observations from a re-analysis of the deposited data

How the results depend on the processing

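No paired analysis was possible because the deposited means pool all libraries and no test was made. Leaving out each solved library in turn, an alternative chosen after seeing the data, kept 3 to 4 of the 4 solved members over 4 times higher with XenofilteR than with Xenome, and COL8A1 was lost without library 5. Of 24 collagen genes with a Xenome mean of at least 10, 15 had at least 50. This is 15 of all 44 members, against 11657 of all 19939 protein-coding genes. XenofilteR and Kallisto gave 25 and 28 at the minimum of 10, and a minimum of 1 with Xenome gave 34. The fibrillar median log2 ratio of Kallisto to Xenome of 0.64 became -0.10 with XenofilteR as denominator, 0.34 with a pseudocount of 5 and 0.24 over genes with a mean of at least 10 in either pipeline, and stayed at 0.65 with a pseudocount of 0.1 and 0.62 after centring. The basement membrane median of 0.02 lay between 0.01 and 0.03 in 4 alternatives and became -0.011 when centred on all protein-coding genes. The 8 members over 4 times higher with Kallisto (against 10.8% of protein-coding genes) became 7 against XenofilteR (against 10.8%). They became 9 at a limit of 2 times (against 16.6%) and 3 at 8 times (against 7.05%). With a pseudocount of 5 they became 4. The share of all genes was not worked out for this pseudocount or for the minimum of 1. A larger pseudocount lowers by construction the ratios of members with low means most, and the cause of the turn with XenofilteR was not tested beyond the counts given for COL1A2, COL3A1 and COL11A1. The 30 members solved with Xenome became 25 when each pipeline was searched alone, and 23 when it was searched alone with a tolerance 10 times as wide. Under this tolerance COL1A2 had 2 Xenome solutions, COL12A1 at least 8 with XenofilteR (the search stopped at 8) and COL16A1 7 and 5. Depth limits libraries 5 and 6 most, where 1 count is worth 1.15 and 1.53 of the mean over 6 libraries, so that ratios of members with means under 10 rest on a few counts.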
